A study of Mus musculus with 4 samples.

Results

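Globins and the genes that mark red cell stages were followed in embryonic mouse kidneys, as a readout of the blood that is carried in the organ at E13.5. The genes were Hba-x, Hbb-y and Hbb-bh1 of the embryonic globins, Hba-a1, Hbb-b1 and Hbb-b2 of the adult globins, and Alas2, Klf1 and Ahsp. They were chosen by name, and all probes whose RefSeq accession is a transcript of one of them were taken from the 4 scanner files. Of the 9 genes, 7 had a matched probe, with 8 probes in all of 55681 on the array. Hbb-b1 and Ahsp had no probe matched by accession and were not analysed here. All 7 were well above background on each of the 4 arrays and entered the test with 25081 genes and unnamed sequences.

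The arrays compared 2 samples of control kidneys with 2 samples of Sall1 knockout kidneys. Embryos of both groups were a hybrid of 129 and C57BL/6 and were exposed to tamoxifen at E12.5, and their kidneys were taken 24 hours later, at E13.5. Tamoxifen switches on CreER, a Cre recombinase that needs this drug to enter the nucleus, and the series describes an inducible deletion of Sall1, the gene of a zinc finger transcription factor of the fetal kidney. Control samples are titled flox and knockout samples CreER KO, so an effect of CreER cannot be told apart from that of the deletion. Whether kidneys of single embryos or of several were pooled, and from which litters, is not stated in the labels. Replicate numbers follow the order of the samples and pair nothing.

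Red cells of the mouse embryo come in successive waves. Primitive red cells arise in the yolk sac, enter the blood as nucleated cells and carry embryonic globin chains, the zeta chain of Hba-x in the alpha family and the chains of Hbb-y and Hbb-bh1 in the beta family. Definitive red cells mature in the fetal liver and carry the adult chains, and around this stage they join the primitive cells in the circulation. Alas2 makes the first enzyme of haem synthesis in red cells. Klf1 encodes a zinc finger factor that binds CACCC boxes of red cell genes, the adult beta globin gene among them.

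Promoters are shown for the 5 members that have an entry in the RefSeq promoter table, because these red cell genes are compared with each other below. Each stretch is the 250 bases before the gene's start, in build GRCm38.p6, read 5′ to 3′ on the gene's strand. Capitals mark the letters AGATAA or TGATAA of a GATA motif and CCNCNCCC of a CACCC motif, searched on both strands, where CACCC matches may overlap each other. The positions are chr11:32276350-32276599 (plus strand) for Hba-x, chr11:32283422-32283671 (plus) for Hba-a1, chr7:103853208-103853457 (minus) for Hbb-y, chrX:150547167-150547416 (plus) for Alas2 and chr8:84901732-84901981 (plus) for Klf1.
Hba-x: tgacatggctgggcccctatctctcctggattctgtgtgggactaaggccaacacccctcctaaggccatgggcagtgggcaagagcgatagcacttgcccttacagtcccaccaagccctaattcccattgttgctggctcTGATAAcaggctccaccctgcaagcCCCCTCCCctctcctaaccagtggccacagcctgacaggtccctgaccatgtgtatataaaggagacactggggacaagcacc
Hba-a1: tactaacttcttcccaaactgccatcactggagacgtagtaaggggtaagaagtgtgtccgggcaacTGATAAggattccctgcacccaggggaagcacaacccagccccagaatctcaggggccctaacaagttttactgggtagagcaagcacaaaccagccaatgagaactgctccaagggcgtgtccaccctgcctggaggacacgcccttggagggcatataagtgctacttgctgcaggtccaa
Hbb-y: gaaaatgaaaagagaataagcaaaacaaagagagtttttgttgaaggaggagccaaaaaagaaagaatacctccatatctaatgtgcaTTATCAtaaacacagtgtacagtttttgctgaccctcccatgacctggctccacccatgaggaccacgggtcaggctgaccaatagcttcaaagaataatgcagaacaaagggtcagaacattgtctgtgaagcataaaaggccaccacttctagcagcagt
Alas2: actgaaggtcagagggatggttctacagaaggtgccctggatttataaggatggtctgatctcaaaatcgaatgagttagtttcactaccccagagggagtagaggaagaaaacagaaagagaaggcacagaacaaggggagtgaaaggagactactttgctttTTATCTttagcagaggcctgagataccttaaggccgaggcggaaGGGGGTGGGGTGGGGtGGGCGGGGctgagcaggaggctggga
Klf1: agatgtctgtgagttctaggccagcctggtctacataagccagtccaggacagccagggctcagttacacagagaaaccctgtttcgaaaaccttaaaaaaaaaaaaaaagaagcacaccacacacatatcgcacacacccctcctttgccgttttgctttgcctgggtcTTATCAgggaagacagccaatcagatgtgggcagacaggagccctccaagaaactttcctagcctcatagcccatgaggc

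A GATA motif lay in all 5 of these windows, against 16.6% of 32851 promoter windows of the same length. The letters CCNCNCCC, which stood for a CACCC motif, lay in 2 of the 5, Hba-x and Alas2, against 45.9% of all windows. The shorter letters CACCC were not counted, and the windows of Hba-a1, Hbb-y and Klf1 hold them too. Alas2 held 4 CCNCNCCC matches between 42 and 19 bases before its start, of which the one nearest the start stood apart and the others overlapped. The letters CCAAT, not capitalised, lay in Hba-a1, Hbb-y and Klf1, 88, 83 and 64 bases before the start, and in 33.8% of all windows. These matches describe the letters only. Hbb-bh1 and Hbb-b2 have no entry in the promoter table. In the order of that reference, the alpha cluster on chromosome 11 runs Hba-x, Hba-a1, Hbq1b, Hba-a2, Hbq1a, and in the beta cluster on chromosome 7 Hbb-bt, Hbb-bs, Hbb-bh3, Hbb-bh2, Hbb-bh1 and Hbb-y follow each other, so that the embryonic gene stands at an end of each cluster.

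The embryonic globins were low on the first and high on the second array of both genotypes. Hba-x had a processed signal (a fluorescence intensity) of 21500 and 50994 on the control arrays and 17661 and 53059 on the knockout arrays. Both replicate 1 arrays were low and both replicate 2 arrays were high, whichever the genotype. After scaling each array to its 75th percentile, Hba-x was 2.60-fold higher on control replicate 2 than on control replicate 1, and 3.07-fold higher on knockout replicate 2 than on knockout replicate 1. Between the groups the log2 difference, knockout minus control, was 0.0083 ± 0.77 (SE, n = 2 per group), with a 95% confidence interval from -2.17 to 2.19.

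Hbb-bh1, the embryonic beta-like gene that is active earliest in primitive cells, had signals of 12400 and 34546 on the control arrays and 10365 and 24909 on the knockout arrays. The order of the arrays was the same, low in both replicate 1 samples, and the groups overlapped. The second array of a group was 3.05-fold above the first in the controls and 2.45-fold above it in the knockouts. The log2 difference between the groups was -0.24 ± 0.75 (SE, n = 2 per group; 95% interval -2.36 to 1.88).

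Hbb-y, the other embryonic beta-like gene, was measured by a pair of probes that were among the brightest spots of every array. The brighter probe, which stood for the gene, had signals of 310000 and 396901 on the control arrays and 263211 and 418369 on the knockout arrays. The dimmer one had 277000 and 284575 on the control arrays and 249605 and 305386 on the knockout arrays. Both probes had their lower value on the replicate 1 array of each group, and the groups overlapped. The brighter probe differed 1.40-fold between the control arrays and 1.62-fold between the knockout arrays, and the dimmer one 1.13-fold and 1.25-fold. The log2 difference between groups was 0.042 ± 0.31 (SE, n = 2 per group; 95% interval -0.84 to 0.93).

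**Figure D1:**
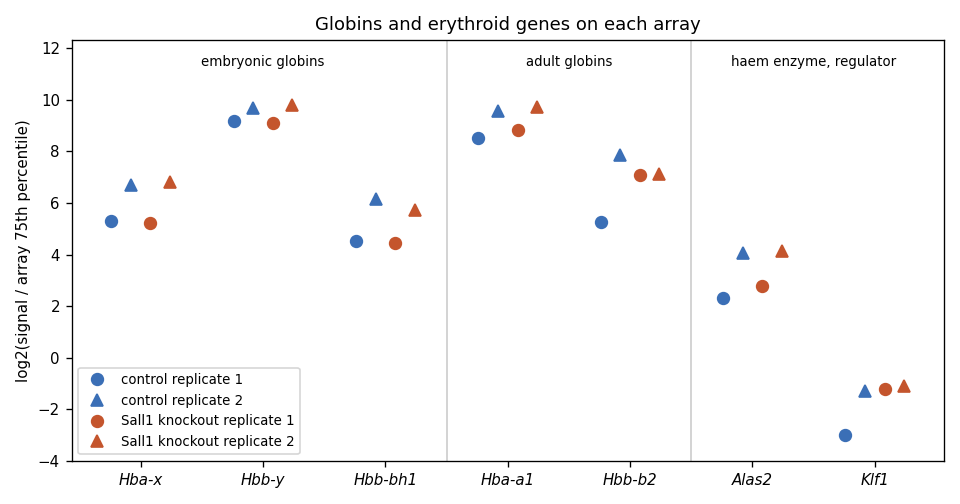
Log2 of the processed signal over the 75th percentile of the array, for the 7 measured genes on each of the 4 arrays (circles, replicate 1; triangles, replicate 2; blue, control; red, Sall1 knockout). The embryonic globins, Hba-a1 and Alas2 are high on both replicate 2 arrays, while Hbb-b2 and Klf1 are low on control replicate 1 alone. Levels of different genes are not comparable, since each has its own probe.

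The adult globins divided into one gene that followed this order and one that did not. Hba-a1, which encodes the adult alpha chain, had signals of 197000 and 372950 on the control arrays and 214344 and 390878 on the knockout arrays. It was thus low on both replicate 1 arrays and high on both replicate 2 arrays, 2.08-fold apart in the controls and 1.86-fold apart in the knockouts. Its log2 difference between groups was 0.22 ± 0.50 (SE, n = 2 per group; 95% interval -1.21 to 1.64). Hba-a1 and Hba-a2 encode nearly identical transcripts, so their probes may share signal.

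Hbb-b2, an adult beta globin gene, had signals of 20800 and 115346 on the control arrays and 64768 and 64830 on the knockout arrays. The control samples held both the lowest and the highest value, and the knockout samples lay between them. The control arrays were 6.08-fold apart, the widest gap among the members, and the knockout arrays 1.02-fold apart. The log2 difference between groups was 0.53 ± 0.94 (SE, n = 2 per group; 95% interval -2.14 to 3.19).

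Hbb-bt, the adult beta globin gene of the C57BL/6 haplotype, is no member but was on the array, with signals of 116000 and 258445 on the control arrays and 169536 and 265268 on the knockout arrays. It was lower on replicate 1 within both groups, as Hba-a1 was. Within an array, the log2 value of Hbb-b2 minus that of Hbb-bt was -2.48 and -1.16 on the control arrays and -1.39 and -2.03 on the knockout arrays, a spread of 1.32 that did not follow genotype. Laboratory mice carry different forms of this locus, with Hbb-bs and Hbb-bt in C57BL/6 and Hbb-b1 and Hbb-b2 in 129 mice. The labels do not give the form that these hybrid embryos carried, and its part in these values was not tested. The adult beta genes are close in sequence, and whether the probes tell them apart was not tested either.

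Alas2 had signals of 2670 and 8268 on the control arrays and 3254 and 8218 on the knockout arrays. It was low on both replicate 1 arrays, as the embryonic globins were, and was 3.39-fold apart in the controls and 2.58-fold apart in the knockouts. Its log2 difference between groups was 0.26 ± 0.81 (SE, n = 2 per group; 95% interval -2.03 to 2.55).

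Klf1 had signals of 67.7 and 202 on the control arrays and 205 and 222 on the knockout arrays. A single sample stood low, control replicate 1, and knockout replicate 1 did not share its low value. Control replicate 2 lay 3.26-fold above control replicate 1, while the knockout arrays were 1.11-fold apart. The knockout kidneys were 1.99-fold higher on average, a log2 difference of 0.99 ± 0.62 (SE, n = 2 per group; 95% interval -0.77 to 2.75). Klf1 was the single member whose groups did not overlap, 1 of 7, where 22.5% of all genes tested were higher in both knockout arrays than in both control arrays. For 0 of 7 members, against 26.3% of all genes, both knockout arrays were lower. Without control replicate 1 the log2 difference was 0.14, and without control replicate 2 it was 1.84.

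None of the 7 members passed in limma at an adjusted p under 0.05, over all genes tested, where 0.0% were called in either direction. The adjusted p was 0.547 for Klf1 and between 0.829 and 0.997 for the other members. At an unadjusted p under 0.05 the count of members was 0, against 7.04% of all genes higher and 5.57% lower. A variance prior that follows the signal called 0 members, while it called 0.578% of all genes higher and 0.646% lower, and normexp background correction likewise called 0 members, with 0.0837% of all genes higher and 0.0957% lower. With the adjusted threshold at 0.1, too, 0 members passed, against 0.0439% of all genes higher and 0.0399% lower. The median log2 difference of the members was 0.22, beside -0.0075 over all genes tested. The direction of this median rested on single arrays: it was -0.62 without control replicate 1, -0.31 without knockout replicate 2, 0.74 without control replicate 2 and 0.66 without knockout replicate 1. The intervals span several-fold in both directions for most members, so these arrays do not show that the groups were alike.

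Most members also differed between arrays of 1 genotype, chiefly between the control arrays. Of the 7 members, 6 were at least 2-fold higher on control replicate 2 than on control replicate 1, all but Hbb-y, against 0.921% of all genes tested, and 0 were at least 2-fold lower, against 0.622%. On knockout replicate 2, 3 were at least 2-fold higher than on knockout replicate 1, against 0.474% of all genes, and 0 were at least 2-fold lower, against 0.463%. The 3 were Hba-x, Hbb-bh1 and Alas2, which were at least 2-fold higher on the second array within both groups, as were 0.195% of all genes. With 1 array against 1 array these counts carry no test. In bulk RNA, fewer red cells and less RNA per red cell cannot be told apart.

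**Figure D2:**
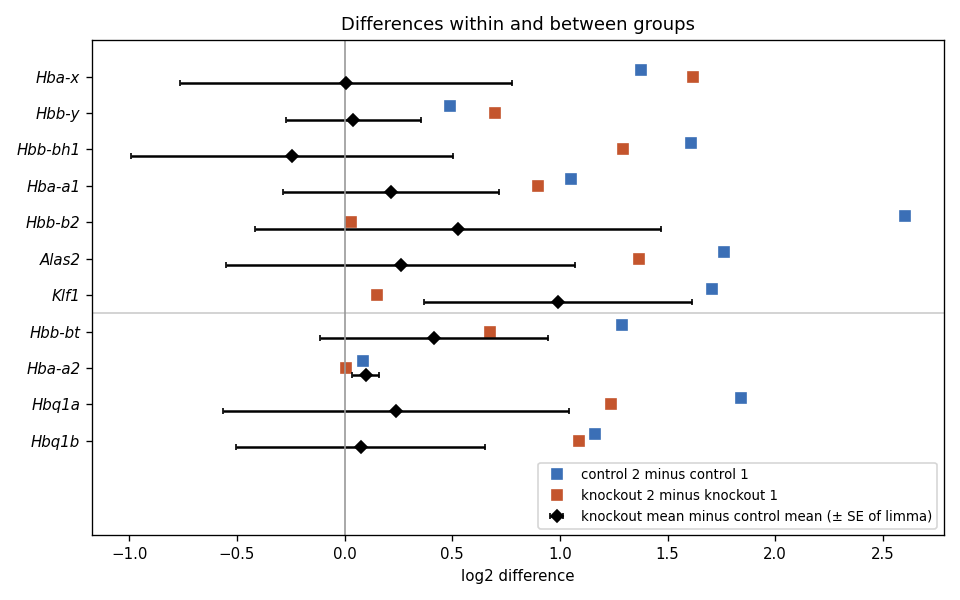
Log2 differences of the 7 members (above the line) and 4 other globins (below it): the second minus the first array of the controls (blue), the same for the knockouts (red), and the knockout mean minus the control mean with the standard error of limma (black). Both squares lie to the right of the black diamond for all but Hbb-b2, Klf1 and Hba-a2.

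Some of the brightest globin probes differed little between arrays. Hba-a2, an adult alpha globin gene whose signal was 355000 and 343768 on the control arrays and 346413 and 341313 on the knockout arrays, was 1.06-fold and 1.01-fold apart within the groups after scaling. The dimmer Hbb-y probe was 1.13-fold and 1.25-fold apart. Hbb-bh1, Hba-x and Alas2, with signals between 2670 and 53059, were 2.45-fold to 3.39-fold apart. The highest signals of any probe that is no control were between 389561 and 426000 on the 4 arrays, and the software marked 0 spots as saturated. Whether spots near this end of the range still respond in proportion to RNA was not tested. The log2 value of Hba-a2 minus that of Hba-a1, transcripts of near-identical genes, was 0.85 and -0.12 on the control arrays and 0.69 and -0.20 on the knockout arrays.

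**Figure D3:**
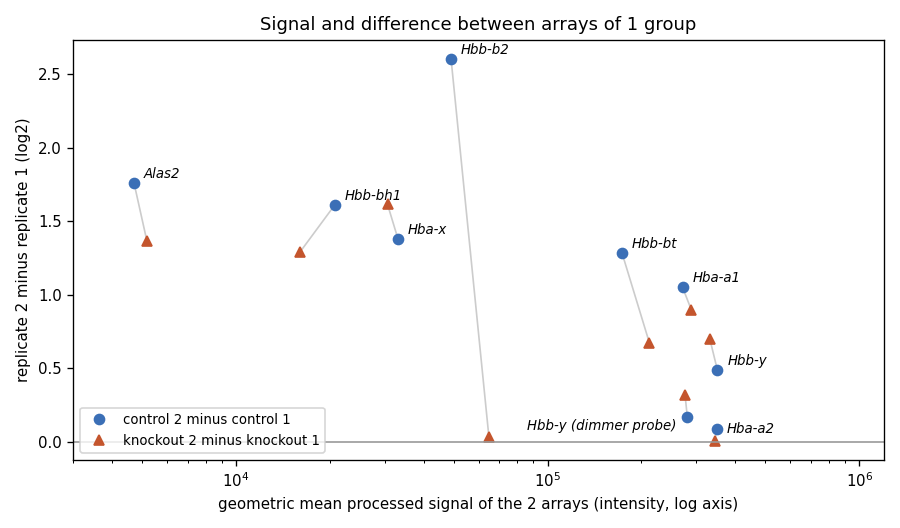
Difference between the arrays of a group (second minus first, log2) against the geometric mean of their processed signals (intensity, log axis), for 9 globin and Alas2 probes; circles are controls, triangles knockouts, and a grey line joins the points of a probe. Hba-a2 and the dimmer Hbb-y probe lie lowest at the bright end in the controls, and the Hbb-b2 points are the farthest apart.

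The balance of embryonic against adult globins was taken within each array, as the mean log2 value of Hba-x, Hbb-y and Hbb-bh1 minus that of Hba-a1 and Hbb-b2, a quantity that the scaling of an array cannot move. It was -0.56 and -1.22 on the control arrays and -1.70 and -0.96 on the knockout arrays. Since each gene has its own probe, only shifts between arrays can be read. The balance was most embryonic on control replicate 1 and most adult on knockout replicate 1, with the replicate 2 arrays between them. The group means were -0.89 ± 0.47 (SD, n = 2) on the control arrays and -1.33 ± 0.52 (SD, n = 2) in the knockout kidneys, so the difference of -0.44 was smaller than the SD within either group.

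The adult genes did not weigh alike in this balance. With Hbb-bt in place of Hbb-b2, the control arrays were 0.011 apart and the knockout arrays 0.42, and the knockout mean was 0.38 lower (-2.18 against -1.80). In this form the difference was larger than the SD within either group (0.008 and 0.295), and the groups did not overlap. With Hbb-bt added to both adult genes the difference was -0.45, and without Hbb-y it was -0.49. Both were larger than the control SD (0.35 and 0.24) but not the knockout SD (0.47 and 0.70), and the groups overlapped. In each of these forms knockout replicate 1 had the lowest, most adult, value. The difference between groups was -0.066 without knockout replicate 1 and -0.81 without knockout replicate 2. Between single pairs of genes, Hbb-bh1 minus Hbb-b2 was -0.75 and -1.74 on the control arrays and -2.64 and -1.38 on the knockout arrays, and the groups overlapped. Hbb-bh1 minus Hbb-bt was -3.23 and -2.90 on the control arrays and -4.03 and -3.41 on the knockout arrays, without overlap between the groups. Hba-x minus Hba-a1 was -3.20 and -2.87 on the control arrays and -3.60 and -2.88 on the knockout arrays, with overlap. A permutation of 2 against 2 arrays cannot reach the threshold, and no test was made.

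**Figure D4:**
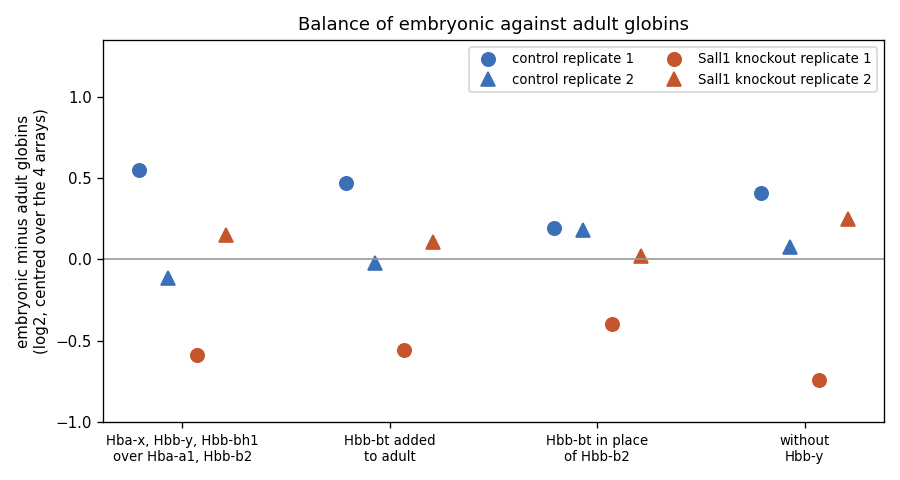
Embryonic minus adult globins on each array, in log2 units and centred on the mean of the 4 arrays, with the adult genes Hba-a1 and Hbb-b2, with Hbb-bt added, with Hbb-bt in place of Hbb-b2, and without Hbb-y. Knockout replicate 1 is lowest in all 4 forms, at -0.59, -0.56, -0.40 and -0.74.

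Both knockout arrays also held more signal of liver markers, the organ in which definitive red cells mature. Of 19 hepatocyte genes 18 were tested and 15 were higher at an unadjusted p under 0.05, against 7.04% of all genes tested. All 18 were higher in both knockout arrays than in both control arrays, against 22.5% of all genes. Their summed level, in units of the array's 75th percentile, was 16.9 and 26.9 on the control arrays and 57.2 and 53.6 on the knockout arrays. The smallest unadjusted p belonged to Trf, Ttr, Afp and Apoa1, genes of proteins that the liver secretes into the blood, with log2 differences of 1.19, 1.81, 1.47 and 1.58. Each of the 18 was above background on all arrays except Apoh on control replicate 1. Replicate numbers pair no arrays between the groups, so values are given per array. Hbb-b2 had log2 values of 5.27 and 7.87 on the control arrays and 7.08 and 7.11 on the knockout arrays. Klf1 had -2.99 and -1.29 on the control arrays and -1.22 and -1.08 on the knockout arrays. Hbb-bt had 7.75 and 9.04 on the control arrays and 8.47 and 9.15 on the knockout arrays. With each gene centred on its mean over all arrays, the hepatocyte median was -1.36 and -0.37 on the control arrays. On the knockout arrays it was 0.87 and 0.79. Control replicate 1 was the lowest array for Hbb-b2, Klf1, Hbb-bt and the hepatocyte median, and also for Hba-a1 and Alas2. Hbb-b2 was highest on control replicate 2, where the hepatocyte median lay below that of both knockout arrays. Hba-x, Hbb-y and Hbb-bh1 were lowest on knockout replicate 1. The part of liver RNA in these values was not tested.

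Other genes of the red cell were taken from lists by role, chosen with earlier results of these data known. In each list 0 genes were called by limma. Of 17 genes of the red cell membrane and its skeleton, 16 were tested, with a median log2 difference of 0.31 between groups. Of these, 9 were at least 2-fold higher on control replicate 2 than on control replicate 1, and 4 were so in both groups. Among them, named after their values were seen, were Slc4a1, the anion exchanger of the red cell, the blood group gene Kel, and Epb42. Slc4a1 had log2 values of 1.85 and 3.59 on the control arrays and 2.26 and 3.52 on the knockout arrays. The smallest unadjusted p belonged to Ank1, the ankyrin of the red cell membrane skeleton, with a log2 difference of 0.62 ± 0.22 (SE), and Dmtn and Icam4 differed by 0.47 and 0.64.

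Erythroid regulators were less uniform. All 15 were tested, with a median log2 difference of 0.20. At an unadjusted p under 0.05, 2 were higher in the knockout, against 7.04% of all genes tested, and in so short a list this count was not tested. They were Bcl11a, a repressor of embryonic-type globin genes, with a log2 difference of 0.26 ± 0.059 (SE), and Cbfa2t3, a corepressor, with 0.29 ± 0.072. Replicate 2 minus replicate 1 was 0.0545 and 0.0226 for Bcl11a in controls and knockouts, and -0.090 and 0.095 for Cbfa2t3. Which cells gave the signal of these genes was not tested. Lmo2, a bridging factor of the Tal1 complex, and Klf3 differed by 0.22 and -0.083. Gata1, the master regulator of red cell genes and named here after its values were seen, had log2 values of -2.35 and -0.62 on the control arrays and -0.87 and -0.53 on the knockout arrays. Like Klf1, it was low on control replicate 1 alone. Tal1, also named afterwards, had 0.19 and 1.33 on the control arrays and 0.61 and 1.48 on the knockout arrays, low on both replicate 1 arrays.

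Genes of haem synthesis and its transport steps, 15 of 15 tested, had a median log2 difference of 0.019 between groups and of 0.20 between the control arrays. Flvcr1, Uros and Cpox were among those with the smallest unadjusted p, with differences of -0.13, 0.12 and 0.27, and 0 passed an unadjusted p under 0.05. The ubiquitous isoenzyme Alas1, chosen after the values were seen as a partner to Alas2, had log2 values of 3.23 and 3.24 on the control arrays and 3.27 and 3.27 on the knockout arrays, a difference of 0.031 ± 0.055 (SE), with no split by replicate. Iron uptake and storage genes had a median of 0.083 over 8 genes. Tfr2, the second transferrin receptor of liver and red cell precursors, had log2 values of -4.23 and -2.85 on the control arrays and -2.38 and -2.44 on the knockout arrays. It was lowest on control replicate 1, with a signal of only 28.7. The log2 difference between groups was 1.13 ± 0.50 (SE). Both knockout values lay above both control values, as for 22.5% of all genes tested. Slc11a2, Tfrc and Steap3 differed by 0.13, -0.14 and 0.10 between groups.

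Late erythroid genes, 13 of 14 tested, had a median difference of 0.051 between groups and of 0.37 between the control arrays, and 0 had an unadjusted p under 0.05. Bnip3l, which drives loss of mitochondria, Tspan33, Prdx2 and Cat differed by -0.22, 0.37, 0.12 and -0.15. Of the erythropoietin axis and progenitor genes 8 of 9 were tested, with a median of 0.21. At an unadjusted p under 0.05, 4 were higher, against 7.04% of all genes tested. Gata2, a factor of blood progenitors that kidney cells also express, had a log2 difference of 0.34 ± 0.065 (SE), Cish, a feedback inhibitor of cytokine receptors, 0.28 ± 0.058, Stat5a 0.41 ± 0.089 and Stat5b 0.17 ± 0.058. Epor, the erythropoietin receptor, named after its values were seen, differed by 0.25 ± 0.26. Epo itself was not above background on both arrays of any group and was not tested.

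The minor alpha-family globins followed the order of the replicates, as the embryonic globins, Hba-a1 and Alas2 did. Hbq1a had log2 values of -3.20 and -1.36 on the control arrays and -2.66 and -1.42 on the knockout arrays, and Hbq1b had -2.49 and -1.33 on the control arrays and -2.38 and -1.29 on the knockout arrays. Both were low on the replicate 1 arrays of both groups, and the groups overlapped. Their lowest value was on control replicate 1, while that of the embryonic globins was on knockout replicate 1. The log2 difference between groups was 0.24 ± 0.81 (SE) for Hbq1a and 0.075 ± 0.58 for Hbq1b. Hbb-bh2, an embryonic-type gene of the beta cluster, had a pair of probes that were not well above background on most arrays and was not tested.

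Markers of other cells that travel in or line the vessels were compared between replicates in the same way. The median log2 difference between control replicate 2 and control replicate 1 was 0.0014 over 12 megakaryocyte and platelet genes, -0.10 over 15 macrophage and leukocyte genes and -0.041 over 10 endothelial genes, beside 1.61 over the members. Between the knockout arrays the same medians were -0.027, -0.22 and 0.020, beside 0.90. Between groups, 10 of 15 macrophage and leukocyte genes were higher at an unadjusted p under 0.05, against 7.04% of all genes tested. Their list had a median of 0.51, with examples in Fcgr3 (0.58), Cx3cr1 (0.59), Aif1 (0.52) and Ptprc (0.38). Of the endothelial genes 5 were higher at that level with a median of 0.17, led by Eng, Tek, Sox17 and Egfl7 (0.26, 0.31, 0.28 and 0.21). Of the platelet genes 1 was, Gp1ba with 0.50, and the next were Gp1bb, Itgb3 and Itga2b with 0.31, 0.18 and -0.32. Summed levels of the platelet list were 5.70 and 6.01 on the control arrays and 7.08 and 6.58 on the knockout arrays.

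**Figure D5:**
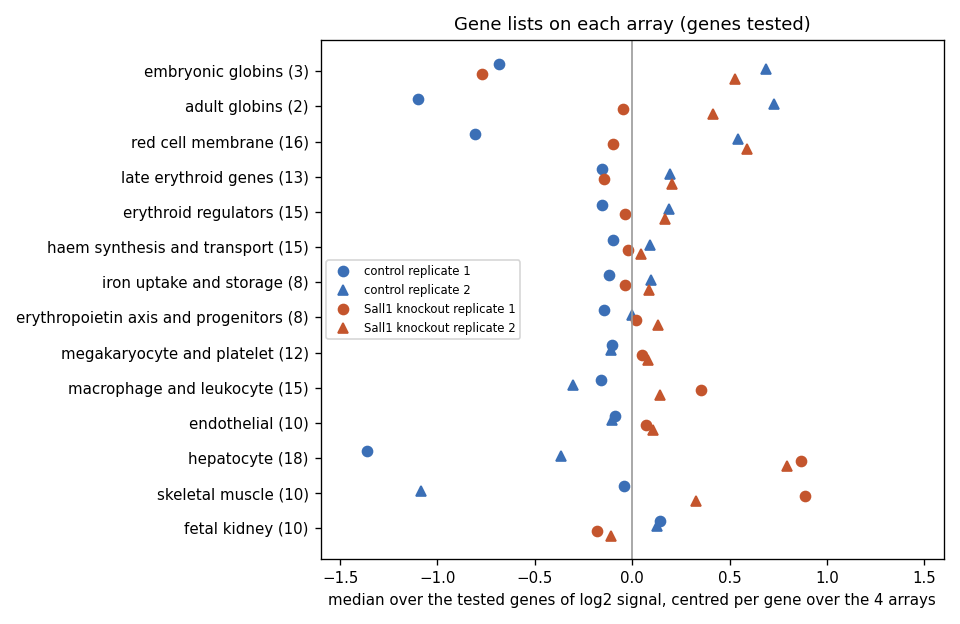
Median over the tested genes of each list, after each gene was centred on its mean of the 4 arrays (log2; number of tested genes in parentheses). Embryonic globins lie at -0.68 and -0.77 on the replicate 1 arrays and at 0.68 and 0.53 on the replicate 2 arrays. Hepatocyte genes are higher on both knockout arrays than on both control arrays. So are the skeletal muscle, macrophage and leukocyte, endothelial, platelet and erythropoietin axis lists, while the fetal kidney list is lower on both.

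Markers of the labelled tissue were present. All 10 genes of the fetal kidney list, such as Osr1, Gdnf, Six2 and Ret, were well above background on the 4 arrays. Their median log2 difference was -0.26, and 7 of 10 were lower in the knockout at an unadjusted p under 0.05, against 5.57% of all genes tested. Without overlap between the groups, 8 were lower, against 26.3% of all genes, and 2 were higher, against 22.5%. The 2 were Pax2 and Wt1, named after their values were seen, with differences of 0.18 and 0.065. Osr1, Gdnf and Six2, with differences of -0.85, -0.68 and -0.50, were called with the variance prior that follows the signal, and 0 were called by the default one. Sall1 itself had log2 values of 1.94 and 1.96 on the control arrays and 1.19 and 1.22 on the knockout arrays, a difference of -0.74 ± 0.056 (SE; adjusted p = 0.128 in limma), and its spread between replicates was small beside that of the globins. The place of its probe relative to the deletion was not known here, so the value is a partial check of the labels. Skeletal muscle genes, 10 of 10 tested, had summed levels of 26.8 and 11.2 on the control arrays and 47.6 and 31.4 on the knockout arrays, lower on replicate 2 within both groups, the reverse of the globins. They were also higher in the knockout, with a median log2 difference of 1.22. At an unadjusted p under 0.05, 4 were higher, against 7.04% of all genes, and 1 was lower, against 5.57%. Without overlap between the groups, 7 were higher and 1 was lower, against 22.5% and 26.3%.

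Across the 4 arrays, the named genes whose centred profile came closest to the mean of the embryonic globins were Lexm, Hbq1b, Grap2, H2al1m, Plek2, Ctsg, Ly6i and Trib3, of 15081 compared, with root mean square differences of 0.060 to 0.13 on the log2 scale. Closest to the mean of the adult globins were Tlx2, Trim10, Zic1, Zc3hav1, Gfi1b, Icam4, Mpo and Cyp2d10, at 0.089 to 0.15. Hbq1b, Trim10, Gfi1b and Icam4 belong to the globin and erythroid lists used here, and Mpo to the macrophage and leukocyte list. The profile of the embryonic globins was -0.55 and 0.61 on the control arrays and -0.63 and 0.57 on the knockout arrays, and that of the adult globins was -1.10 and 0.73 on the control arrays and -0.047 and 0.42 on the knockout arrays. Likeness over 4 arrays is a description of these samples.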

How the data were processed

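Total RNA of 4 samples was labelled with Cy3, starting from 0.25 µg, and hybridised to 1-colour Agilent arrays of design 028005, all on 1 slide and in 1 scan. The scanner output was deposited as written by Agilent's Feature Extraction software, version 10.7.3.1, for a design on genome build mm9, per the file headers, and its processed signal is an intensity corrected for background within the array and not scaled between arrays. The value table holds the same intensity for 100% of 55249 single-spot probes within 1%. Per array, between 60.6% and 64.2% of 59305 spots that are no controls were well above background. The number of arrays limits the precision, and p-values reflect only how these 4 samples vary, which may be technical.

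Outlier-marked spots were left out, log2 signals were set relative to each array's 75th percentile, and 34258 probes above background on both arrays of a group were kept. Accessions were matched without versions to a RefSeq table of GRCm38.p6 (26413 probes named, 29268 not), and the probe with the highest mean stood for a gene. The knockout was set against the control in limma 3.58.1, run in R 4.3.3 (two-sided, Benjamini-Hochberg over 25081 genes and unnamed sequences, 2 residual and 1.82 prior degrees of freedom), tested on simulated data. SE and intervals are from this fit. Members and lists were chosen with earlier results of these data known. Named in the text are all members and other globins, up to 4 genes of each list by unadjusted p, Sall1, and the 8 genes nearest to each globin profile; others are said to be named afterwards. Some genes that this rule names are not reported here. The alternatives were another background correction, normalization, filter, probe choice, variance prior, array weights, source of values, threshold and each array left out.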

Additional observations from a re-analysis of the deposited data

How the results depend on the processing

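Over all genes, limma called 0 in the main setting, while an unadjusted p under 0.05 was reached by 1766 with higher and 1397 with lower values in the knockout. It called 45 with normexp correction, 8 with median centring, 307 with the trended and robust prior and 21 at an adjusted p under 0.1, and 0 in every other setting tried, arrays left out included. The median difference of the members lay between 0.17 and 0.22 under the processing alternatives and between -0.62 and 0.74 with single arrays left out. The balance of embryonic against adult globins lay between -0.49 and -0.38, and between -0.81 and -0.066 with arrays left out. Hba-x turned to -0.0305 with median centring and Hbb-y to -0.0305 with quantile normalization. With single arrays left out, the log2 difference ranged from -0.80 to 0.82 for Hba-x, from -0.31 to 0.74 for Hba-a1, from -0.31 to 0.39 for Hbb-y, from -1.05 to 0.56 for Hbb-bh1, from -0.78 to 1.83 for Hbb-b2 and from -0.62 to 1.14 for Alas2, so all of these reversed in some setting. Klf1 kept its direction in 15 of 15 alternatives (0.14 to 1.84). For Sall1 the adjusted p was 0.0393 with normexp correction and 0.00127 with the trended and robust prior. The forms of the balance with Hbb-bt, without Hbb-y or with the dimmer Hbb-y probe (-0.42) were chosen after seeing the data. No paired analysis was possible because the labels give no shared replicate number.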

Other observations

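Globins of other tissues did not follow the order of the red cell globins. Mb, which encodes the myoglobin of muscle, had log2 values of -2.75 and -3.74 on the control arrays and -1.95 and -2.51 on the knockout arrays, a difference of 1.01 ± 0.42 (SE; adjusted p = 0.438 in limma), lower on replicate 2 within both groups as the skeletal muscle genes were. Cygb, the cytoglobin of fibroblast-like cells, had 1.39 and 1.27 on the control arrays and 1.76 and 1.54 on the knockout arrays, a difference of 0.32 ± 0.11 (SE; adjusted p = 0.386). Both knockout values lay above both control values for each of these genes, as for 22.5% of all genes tested. Ngb, neuroglobin, was not above background on any array.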
